A study of Saccharomyces cerevisiae with 30 samples.

Results

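The genes of meiosis and spore formation were followed in haploid budding yeast that were growing in rich medium, where this programme is normally kept off. A list of 42 genes was taken by name, and 41 of them had a mean of at least 10 normalised counts over the 30 libraries and were tested. They stand among 7127 genes in the table, of which 5948 passed the same limit. Both strains were haploid MATa in the S288c background and carried ura3::GDP-cre EBD78:LEU2, a Cre recombinase that beta-estradiol switches on, together with the alleles met15-delta-0, ura3-delta-0, his3-delta-1 and leu2-delta-0. The CEN4* strain had, in addition, lox-CEN4-lox:KanMX, a centromere of chromosome IV between lox sites, and is called cen4- at the times after beta-estradiol, when the recombinase can cut the centromere out. The CEN4 strain had no lox sites there and served as control. Both strains grew in YPD at 30 °C, received 1 µM beta-estradiol, and were sampled at 0, 30, 60, 120 and 180 min in 3 independent experiments, which gave 10 groups of 3 libraries of total RNA. How many cells had lost the centromere at each time, and whether cells went on dividing, was not measured here.

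Meiosis in this yeast is entered by diploid cells that starve. Ime1 then switches on early genes for recombination and chromosome pairing by acting at Ume6, which in growing cells holds the repressor Rpd3 at a site called URS1. Early genes lead to Ndt80, which switches on the middle genes for the meiotic divisions and the prospore membrane through the middle sporulation element, a site that the repressor Sum1 occupies during growth. Late genes then build the spore wall from glucan, chitosan and dityrosine.

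The promoter sequences are shown because the sites named above differ in frequency between the early and the middle genes of the list. Windows ran from 250 bases before to 50 bases after the annotated start of each gene in the R64 genome (the reference sequence of RefSeq), and both strands were searched for 3 short strings: GGCGGC, the core of URS1, CACAAA, the core of the middle sporulation element, and AGGGG, the stress response element bound by Msn2 and Msn4. No 2 matches overlapped in a window of the list. Of the 42 windows, 13 (31%) held the URS1 core, against 5.13% of all 6007 windows. They were 6 of 11 recombination genes, 6 of 7 genes of the chromosome axis and synapsis, and SMK1. The core of the middle sporulation element was in 19 windows (45.2%), against 18.8% of all windows, and in all 8 genes of the prospore membrane and its signalling. Among recombination and axis genes it was in MSH5 and RED1, and SPO11, REC102, MND1 and MSH4 held neither core. The stress response element was in 7 windows (16.7%), against 21.6% of all windows. These matches are descriptions of the letters, and they say nothing about binding in these cells. Below, parts of 12 windows are printed 5′ to 3′ on the strand of the gene. Capitals mark the core, or its reverse complement where the match was on the other strand.
HOP1, chrIX:226414-226453, plus strand, URS1 core: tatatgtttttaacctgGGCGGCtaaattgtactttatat
HOP2, chrVII:435479-435518, plus strand, URS1 core: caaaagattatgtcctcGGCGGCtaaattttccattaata
DMC1, chrV:548266-548305, plus strand, URS1 core: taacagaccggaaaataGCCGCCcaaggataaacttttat
REC114, chrXIII:536098-536137, plus strand, URS1 core: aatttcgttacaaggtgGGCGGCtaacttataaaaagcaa
SPO16, chrVIII:402748-402787, minus strand, URS1 core: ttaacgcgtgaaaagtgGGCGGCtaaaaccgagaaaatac
SPO22, chrIX:226056-226095, minus strand, URS1 core: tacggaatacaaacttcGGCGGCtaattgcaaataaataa
SPO21, chrXV:145158-145227, plus strand, middle sporulation element core: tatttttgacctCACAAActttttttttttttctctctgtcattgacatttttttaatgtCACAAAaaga
SPS22, chrIII:42047-42086, plus strand, middle sporulation element core: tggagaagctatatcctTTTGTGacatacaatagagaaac
SPS4, chrXV:903042-903081, minus strand, middle sporulation element core: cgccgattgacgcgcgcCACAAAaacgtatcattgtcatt
CDA1, chrXII:745489-745528, plus strand, middle sporulation element core: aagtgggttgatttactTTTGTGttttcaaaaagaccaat
SMK1, chrXVI:666119-666228, plus strand, both cores: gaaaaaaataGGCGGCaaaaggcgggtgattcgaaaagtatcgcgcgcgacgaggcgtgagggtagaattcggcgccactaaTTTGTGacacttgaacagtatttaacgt
SPS100, chrVIII:379311-379380, minus strand, stress response element: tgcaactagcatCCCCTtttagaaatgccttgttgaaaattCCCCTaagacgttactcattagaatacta

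Libraries held 8218002 to 14956813 reads, and the list took 0.0585% to 0.116% of them, 6110 to 12476 reads in a library. Replicates differed by more than counting noise in every pair (chi-square per degree of freedom 1.48 to 7.75 over 30 pairs). The labelled mating type was seen in its markers: the summed level of 7 a-cell markers was between 22935 and 54057 normalised counts, and that of 4 alpha-cell markers between 586 and 781, most of it SAG1. The haploid marker RME1, which represses IME1 in haploid cells, stood at 580 to 954. Reads came from whole cultures, so fewer cells with a transcript and less transcript per cell cannot be told apart.

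Most of the genes were transcribed at a low level. Per kilobase of coding sequence, the median level of the list was 85.5 normalised counts, against 574 over 5717 tested genes with an annotated length. Of the 41 genes, 40 lay below that median and 29 in the lowest 10%. SPS100, a late spore wall gene, was the exception with 752 per kilobase. GSC2, a glucan synthase subunit that vegetative cells also use, had 397, and UME1, a subunit of the Rpd3 repressor complex, had 446. At the other end SPS22, needed for the glucan layer of the spore wall, had 13.9 per kilobase and as few as 3 reads in a library. SPO20, a membrane fusion protein of the prospore membrane, had 19.6. The gene below the limit was CDA2, for a chitin deacetylase, with 0 to 22 reads in a library and 0 reads in 4 libraries. Introns were present in 7 of the 42 genes (HOP2 with 2, and REC102, REC114, DMC1, MEI4, MND1 and SPO22 with 1 each), against 5.14% of the tested genes matched to R64. The files give reads per gene, so spliced and unspliced transcripts were not told apart.

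**Figure D1:**
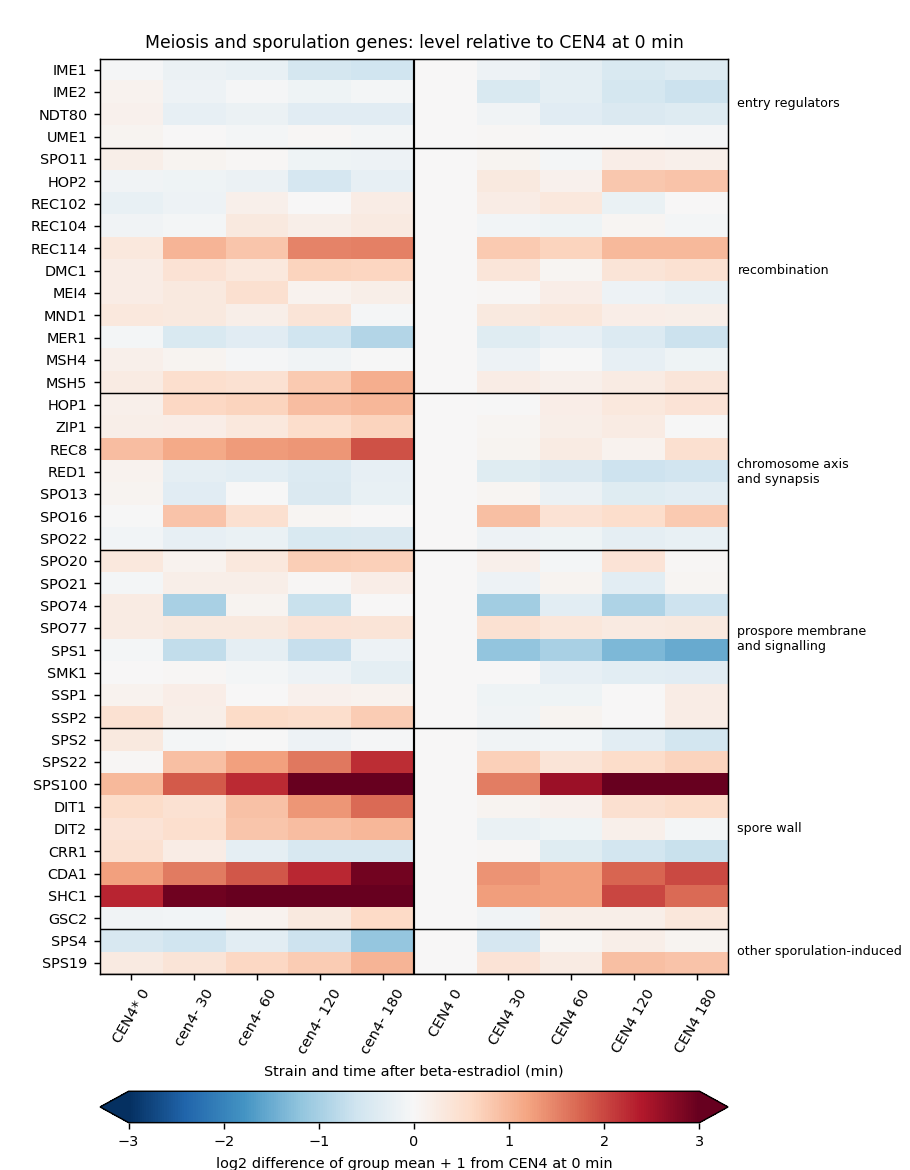
Colour gives the log2 difference of each group mean (plus 1) from CEN4 at 0 min for the 41 tested genes, grouped by role, with the CEN4* and cen4- groups left of the black line and the CEN4 groups right of it. SPS100 is dark red at 120 and 180 min in both strains, and SHC1 at these times in the cen4- strain. IME1 and MER1 turn blue with time in both strains, and the colour scale ends at 3 in either direction.

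Before beta-estradiol, 7 of the 41 genes stood higher in the CEN4* strain and 1 stood lower. Among all tested genes 8.83% were higher and 7.06% lower at 0 min. SHC1, which activates chitin synthesis in sporulation, stood at 267, 267 and 268 normalised counts in the 3 CEN4* libraries, against 41.5, 70.7 and 49.0 in the 3 CEN4 libraries, and was 5.02-fold higher (log2 2.33 ± 0.13 SE, limma adjusted p = 5.98e-14). CDA1, the other chitin deacetylase gene, had 14, 18.2 and 25.4 in CEN4* cells and 8.73, 6.85 and 7.35 in CEN4 cells (log2 1.19 ± 0.27 SE, limma adjusted p = 6.29e-04). SPS100 had 194, 240 and 237 in CEN4* cells and 89.5, 137 and 114 in CEN4 cells (log2 0.99 ± 0.12 SE, limma adjusted p = 9.38e-07). In these 3 genes the libraries of the strains did not overlap.

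Of the other members that differed at 0 min, REC8, the meiotic cohesin subunit, was 0.92 higher on the log2 scale in CEN4* cells, DIT1, which makes the dityrosine precursor, 0.57, CRR1, a spore wall glycosidase, 0.47, and REC114, a factor for meiotic double-strand breaks, 0.31 (limma adjusted p of 2.62e-05 to 0.033). SPS4, a sporulation-induced gene of unknown function, was lower (-0.49, limma adjusted p = 9.68e-04). REC114 overlapped between the strains and was not called without CEN4 t0 replicate 3 (limma adjusted p = 0.26), CEN4* t0 replicate 1 (0.127) or CEN4* t0 replicate 3 (0.233), nor by edgeR or DESeq2 on the recovered reads, and DIT1 was not called without CEN4 t0 replicate 2 (limma adjusted p = 0.0591). By role, 5 of 9 spore wall genes, 1 of 7 axis genes and 1 of 11 recombination genes were higher, and none of the 4 entry regulators or the 8 prospore membrane genes was called. Of 25 general stress genes 22 were higher at 0 min and none lower (median 0.76, against -0.0015 over all genes), with a summed level of 39085 to 42028 in CEN4* and 21296 to 25612 in CEN4 libraries. Its part in the differences of the spore wall genes was not tested.

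With time after beta-estradiol the list split in each strain. At 180 min against 0 min, 15 genes were higher and 10 lower in the cen4- strain, where 37.5% of all tested genes were higher and 37.7% lower. In CEN4 cells 13 were higher and 12 lower, where 36% of all genes were higher and 35.2% lower. These shares, 36.6% and 24.4% of the list in the cen4- strain and 31.7% and 29.3% in CEN4, are near or below those of all genes. Both strains had 11 genes higher (CDA1, DIT1, DMC1, GSC2, HOP1, MSH5, REC114, REC8, SHC1, SPS100 and SPS19) and 8 lower (CRR1, IME1, MER1, NDT80, RED1, SMK1, SPO22 and SPS2), and no gene was called in opposite directions. Called in the cen4- strain alone were DIT2, REC102, SPS22 and ZIP1 as higher and SPS4 and UME1 as lower. Called in CEN4 alone were HOP2 and SPO16 as higher and IME2, SPO13, SPO74 and SPS1 as lower. Whether these differ between the strains is what the excision effect below tests. The other 10 (MEI4, MND1, MSH4, REC104, SPO11, SPO20, SPO21, SPO77, SSP1 and SSP2) were called in neither strain.

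In the cen4- strain the largest rises at 180 min were those of SPS22 (log2 2.32), SPS100 (2.22), SHC1 (2.13), CDA1 (1.70), REC114 (1.21) and DIT1 (1.15), and the largest falls those of CRR1 (-0.95), MER1 (-0.81), SPS4 (-0.68), IME1 (-0.56), NDT80 (-0.48) and SPS2 (-0.36). In CEN4 cells SPS100 (3.66), CDA1 (1.96), SHC1 (1.71), REC114 (0.97), HOP2 (0.86) and SPS19 (0.83), a peroxisomal enzyme of fatty acid oxidation, rose most. SPS1 (-1.53), IME2 (-0.67), CRR1 (-0.66), MER1 (-0.66), SPO74 (-0.62) and RED1 (-0.57) fell most. The limma adjusted p of these genes ran from 3.6e-16 to 0.0462 in cen4- and from 1.87e-18 to 0.00794 in CEN4 cells. All 25 general stress genes rose in both strains (medians 2.36 in cen4- and 1.87 in CEN4). Their part in the rises of the spore wall genes was not tested.

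Some calls at 180 min hung on single libraries. In the cen4- strain the fall of SPS2 (limma adjusted p up to 0.302 without cen4- t180 replicate 1) and the rises of DIT2 (up to 0.193 without CEN4* t0 replicate 2), DMC1 (up to 0.0919 without cen4- t180 replicate 1) and REC102 (up to 0.0918 without cen4- t180 replicate 2) were lost. SPS2 lost its call without any of the other libraries of these groups except cen4- t180 replicate 2, without which it was -0.54. DIT2 also lost it without CEN4* t0 replicate 1 and cen4- t180 replicates 1 and 3, DMC1 without CEN4* t0 replicates 2 and 3 and cen4- t180 replicate 3, and REC102 without CEN4* t0 replicate 2. In CEN4 cells SPO13 (up to 0.129 without CEN4 t180 replicate 2, and also without CEN4 t0 replicates 2 and 3 and CEN4 t180 replicate 1), REC8 (up to 0.136 without CEN4 t180 replicate 3, and also without CEN4 t180 replicate 1 and CEN4 t0 replicate 3) and SPO22 (up to 0.0892 without CEN4 t180 replicate 3, and also without CEN4 t0 replicate 1) did so too. DMC1 (0.0886) and HOP1 (0.0551) lost their CEN4 calls without CEN4 t0 replicate 3.

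The choice of scaling set the balance of rises and falls. With equal totals for all libraries the median gene at 180 min moved by 0.31 in cen4- and 0.21 in CEN4. With that scaling 22 members were higher and 4 lower in cen4-, and 21 higher and 6 lower in CEN4. Of all 5948 tested genes, 3746 were then higher and 1051 lower in cen4-, and 3304 and 1193 in CEN4. Under it UME1 turned to 0.15 and SMK1 to 0.03 in cen4-, where they were at -0.16 and -0.29. It also ended the calls of NDT80, SPO22, RED1 and SPS2 in cen4- and of SPS2, SPO74, SPO13, SPO22, IME1 and SMK1 in CEN4, all at 180 min, and that of CRR1 for excision at 120 min. All changes given here keep the deposited scaling and so are relative to the median gene.

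Earlier times had fewer calls. At 30 min 7 genes were higher and 8 lower in cen4- (62.2% of all genes were called in either direction) and 6 higher and 7 lower in CEN4 (63.7% of all genes). In cen4- cells SPS22 (1.02), SPS100 (0.86), SPO16 (0.85), REC114 (0.72), SHC1 (0.61) and HOP1 (0.45) rose most and SPO74 (-1.19), SPS1 (-0.79), MER1 (-0.41), SPO13 (-0.40), NDT80 (-0.40) and RED1 (-0.39) fell most. In CEN4 cells the 6 rises were those of SPS100 (1.55), CDA1 (1.31), SHC1 (1.29), SPO16 (0.88), REC114 (0.78) and SPO77 (0.46), and SPS1 (-1.18), SPO74 (-1.03), SPS4 (-0.52), IME2 (-0.47), RED1 (-0.36) and MER1 (-0.36) fell most. SPO16, whose product starts synapsis, and SPO74, part of the meiotic spindle pole body, thus had their largest change since 0 min at the first time point in both strains. SPO16 stood at 122 ± 9.82 normalised counts in cen4- cells at 30 min, against 66.9 ± 5.08 in CEN4* cells before the hormone. The CEN4 means were 126 ± 24.7 at 30 min and 67.2 ± 5.84 before it (SD, n = 3 each).

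At 60 min 9 genes were higher and 5 lower in cen4- (56.5% of all genes called), and 7 higher and 7 lower in CEN4 (57.1%). The rises in cen4- were led by SPS22 (1.30), SPS100 (1.27), SHC1 (0.77), CDA1 (0.66), REC114 (0.52) and HOP1 (0.50), and the 5 falls were those of CRR1 (-0.73), RED1 (-0.43), NDT80 (-0.32), MER1 (-0.30) and UME1 (-0.15). In CEN4 cells SPS100 (2.58), SHC1 (1.26), CDA1 (1.17), REC114 (0.68), SPO16 (0.43) and SPO77 (0.35) rose most and SPS1 (-0.97), RED1 (-0.44), CRR1 (-0.37), NDT80 (-0.35), IME1 (-0.31) and IME2 (-0.30) fell most.

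At 120 min 12 were higher and 11 lower in cen4- (72% of all genes called), and 12 higher and 12 lower in CEN4 (70.6%). SPS100 (2.17), SPS22 (1.68), SHC1 (1.37), REC114 (1.18), CDA1 (1.08) and HOP1 (0.77) led the rises in cen4-, and CRR1 (-0.94), SPO74 (-0.86), SPS1 (-0.63), MER1 (-0.54), RED1 (-0.53) and SPO13 (-0.52) the falls. In CEN4 cells SPS100 (3.83), SHC1 (2.03), CDA1 (1.73), REC114 (0.97), SPS19 (0.90) and HOP2 (0.81) led the rises and SPS1 (-1.35), SPO74 (-0.92), RED1 (-0.63), CRR1 (-0.56), IME2 (-0.53) and IME1 (-0.46) the falls.

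The difference between the strains in their change since 0 min is called the excision effect. From the log2 change of the cen4- strain against its own 0 min libraries, that of the CEN4 strain is subtracted. The result is tested as an interaction. It cannot tell loss of the lox-flanked centromere from other differences between the strains in their time course. The excision effect reached few members before 180 min. At 30 min and at 60 min 1 gene was called, SPS100, as lower (1.85% and 2.91% of all genes were called). At 120 min 1 was higher (11.9% of all genes) and 4 were lower (14.2%). At 180 min 7 were higher (19.8% of all genes) and 4 were lower (22.5%), so that 17.1% of the list was higher and 9.76% lower. Of the 7 higher genes 4 lie on chromosome IV, whose centromere is flanked by the lox sites. The median effect of the 41 genes at 180 min was 0.08, against -0.01 over all genes, and their standard error had a median of 0.20 on the log2 scale, against 0.08, so that only larger changes could be called in these weakly expressed genes. Compared directly at 180 min, 19 of the 41 genes stood higher in the cen4- strain (30.9% of all genes) and 6 lower (33.2%), a difference that holds what was already there at 0 min. SHC1 (2.75), SPS22 (1.55), REC8 (1.43), SPS1 (1.40), DIT1 (1.18) and DIT2 (1.08) led the 19, and the 6 were SPS4 (-1.25), HOP2 (-1.13), SPO16 (-0.80), SPS100 (-0.46), IME1 (-0.21) and SPO22 (-0.21). The excision effects and the strain difference at 0 min share the 0 min libraries.

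Split by chromosome, a tally made after the values were seen, most of the called positive excision effects at 180 min were on chromosome IV. All 6 members on it had a positive excision effect at 180 min: SPS1 (1.48), DIT2 (0.65), DIT1 (0.61), ZIP1 (0.51), MSH5 (0.47) and SPS2 (0.19), of which DIT2 and SPS2 were not called. Their median was 0.56, against 0.14 over all 743 tested genes of that chromosome. Of those 743 genes 39.2% were higher and 11.6% lower, against 17.7% and 24.0% of the 4974 tested genes on other chromosomes. The 35 members elsewhere had 3 genes higher (SPS22, IME2 and GSC2) and 4 lower, with a median of -0.04, against -0.03 over the 4974 genes. Before beta-estradiol 12.1% of the genes of chromosome IV were already higher in CEN4* and 3.10% lower. A positive effect is not always a rise: SPS1 fell in CEN4 (-1.53) and was not called in cen4- at 180 min. SPS1 and SPS2 are near one another on the chromosome, as are DIT1 and DIT2, so the 6 genes are not separate samples of it. The number of copies of chromosome IV in these cells was not measured here, and its part in these 6 effects was not tested.

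**Figure D2:**
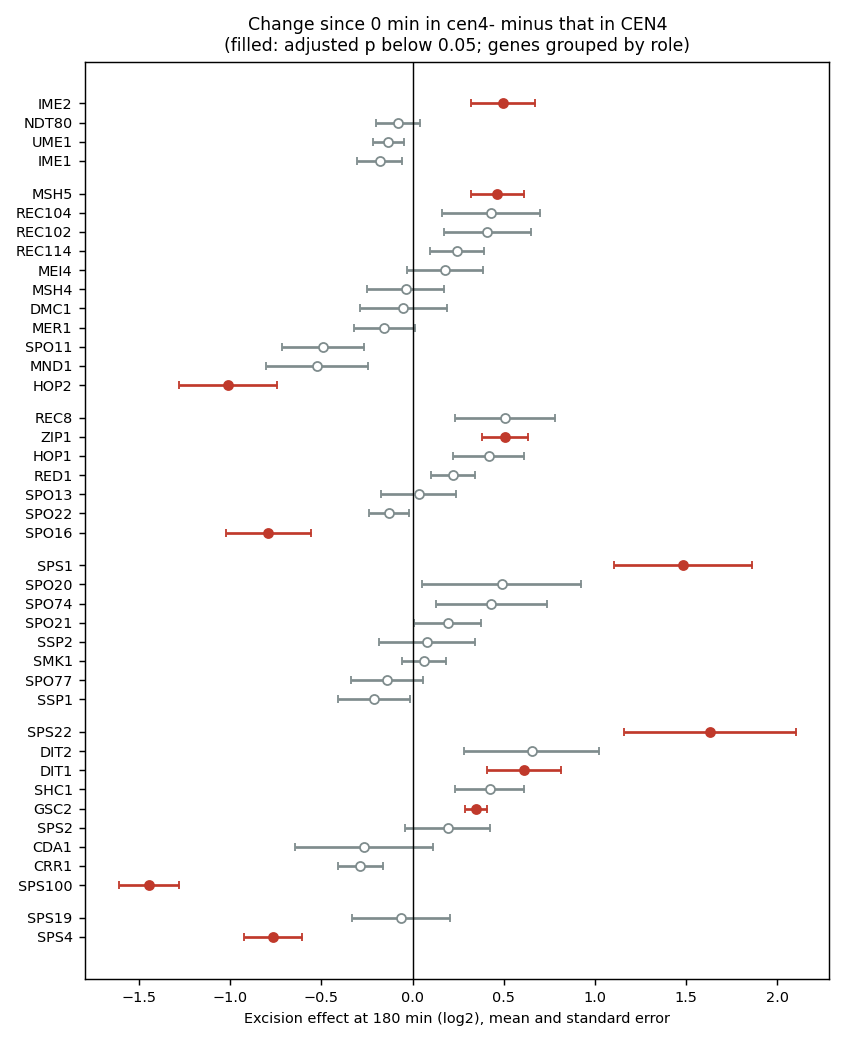
Points give the excision effect at 180 min of the 41 tested genes on the log2 scale, with bars of 1 standard error, in blocks by role and filled where the limma adjusted p was below 0.05. The 11 filled points lie in 6 blocks and run from -1.45 for SPS100 to 1.63 for SPS22.

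None of the 4 regulators at the entry to the programme was called as higher at 180 min in either strain. IME1, the activator of early genes (YJR094C, chromosome X, 604569 to 605651), was at 177, 161 and 165 normalised counts in cen4- cells at 180 min, against 245, 256 and 243 in CEN4* cells at 0 min. In CEN4 cells it was at 195, 194 and 195 at 180 min, against 251, 261 and 250 at 0 min. All 6 libraries at 180 min lay below all 6 at 0 min, and IME1 fell in both strains (log2 -0.56 ± 0.09 SE, limma adjusted p = 5.79e-08 in cen4-, and -0.38 ± 0.09 SE, limma adjusted p = 9.93e-05 in CEN4). With libraries scaled to the same total the fall of IME1 in CEN4 was -0.18 and not called (limma adjusted p = 0.0668). The excision effect was -0.18 ± 0.12 SE (limma adjusted p = 0.253).

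NDT80, the activator of middle genes, was at 254, 225 and 243 normalised counts in cen4- at 180 min and at 345, 336 and 323 in CEN4* at 0 min. In CEN4 it was at 255, 226 and 213 at 180 min and at 309, 282 and 322 at 0 min. It fell in both strains (-0.48 in cen4-, limma adjusted p = 1.1e-06, and -0.40 in CEN4, limma adjusted p = 3.55e-05), though with libraries scaled to the same total the value of NDT80 in cen4- was -0.16 and not called (limma adjusted p = 0.0671). In the CEN4* strain the fall was already seen at 30 min, when the libraries were at 250, 245 and 269.

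IME2, the kinase that Ime1 switches on and that promotes entry into meiosis, was at 167, 212 and 188 in cen4- at 180 min and at 231, 200 and 208 in CEN4* at 0 min, so the libraries overlapped. In CEN4 cells it was at 102, 155 and 118 at 180 min and at 205, 191 and 194 at 0 min, and these did not overlap. The fall in CEN4 (-0.67, limma adjusted p = 3.08e-06) against -0.18 in the other strain, which was not called, gave an excision effect of 0.49 ± 0.18 SE (limma adjusted p = 0.0186). It was not called without CEN4 t180 replicate 1 (limma adjusted p = 0.103) or cen4- t180 replicate 2 (0.0734).

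UME1, the repressor subunit, was at 573, 589 and 599 in cen4- at 180 min and at 663, 670 and 638 in CEN4* at 0 min, while CEN4 cells had 609, 609 and 590 at 180 min and 609, 592 and 646 at 0 min. Its small fall in cen4- (-0.16, limma adjusted p = 0.0123) turns to a rise of 0.15 when libraries are scaled to the same total. Its group means spanned 1.12-fold over the 10 groups, the smallest span in the list.

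**Figure D3:**
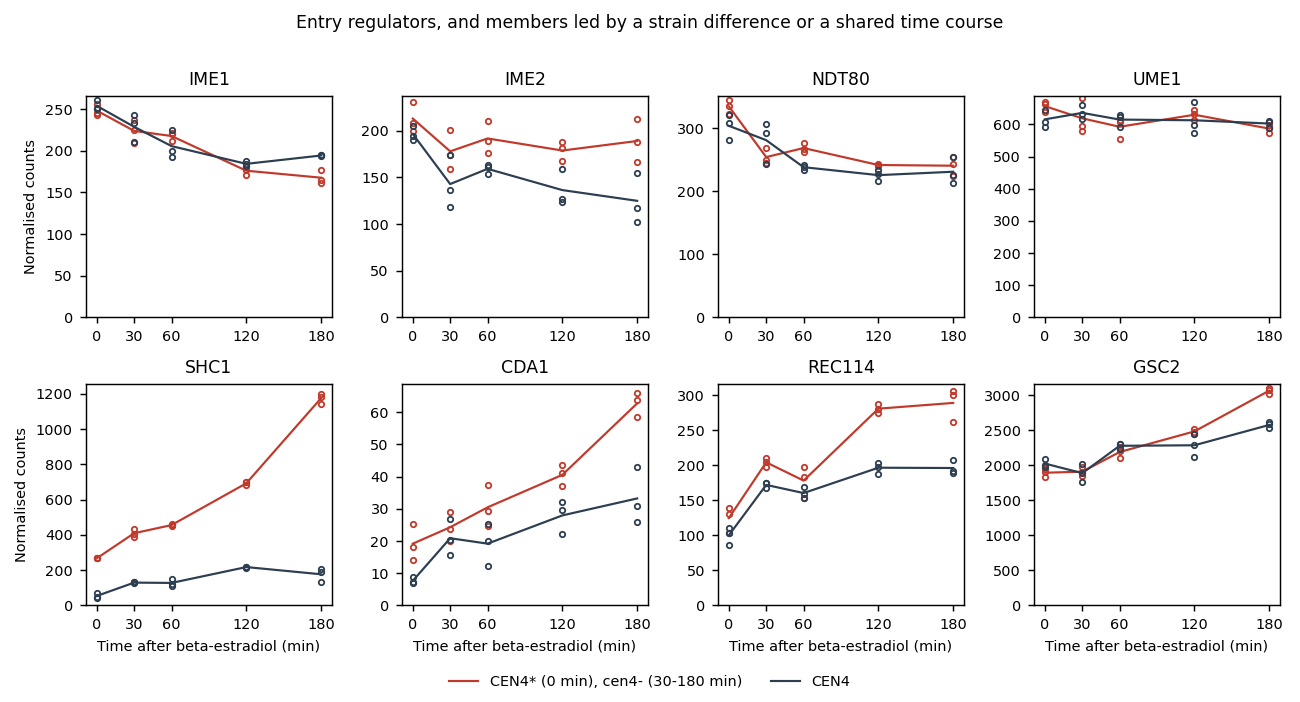
Normalised counts of 8 genes against time after beta-estradiol, with the 3 libraries of each group as circles and the group means as lines, red for CEN4* and cen4- and dark blue for CEN4. IME1 and NDT80 decline in both strains, SHC1 lies above CEN4 at all 5 times and reaches 1175 at 180 min in cen4-, and UME1 stays between 587 and 657.

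Recombination genes gave 1 higher and 1 lower excision effect among 11 at 180 min, where 19.8% of all genes were higher and 22.5% lower. HOP2, which with Mnd1 restricts pairing to homologous chromosomes (YGL033W, chromosome VII, 435625 to 436401), was at 52.7, 36.8 and 54.2 normalised counts in cen4- at 180 min and at 52.7, 45.0 and 60.9 in CEN4* at 0 min. In CEN4 it was at 107, 98.1 and 109 at 180 min and at 52.4, 59.3 and 59.6 at 0 min. The CEN4 libraries at 180 min thus stand above the other 9 of these 12. HOP2 rose in CEN4 (0.86, limma adjusted p = 5.71e-05), and the excision effect was -1.01 ± 0.27 SE at 180 min (limma adjusted p = 0.00159) and -1.25 ± 0.27 SE at 120 min (limma adjusted p = 2.43e-04), when cen4- libraries had 27.5, 50.8 and 41.0 and CEN4 libraries 100, 115 and 88.7. HOP2 carries the URS1 core shown above, and so do MEI4, REC104, REC114, DMC1 and MER1, none of which had a called excision effect at 180 min.

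MSH5, which with Msh4 promotes crossovers, was at 347, 343 and 357 in cen4- at 180 min and at 198, 221 and 167 in CEN4* at 0 min. CEN4 cells had 222, 199 and 218 at 180 min and 145, 176 and 171 at 0 min. It rose in both strains, by more in cen4- (excision effect 0.47 ± 0.15 SE, limma adjusted p = 0.00744). Without CEN4* t0 replicate 3 the limma adjusted p lay just above the threshold of 0.05.

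REC114 rose in both strains (1.21 in cen4- and 0.97 in CEN4), with 262, 300 and 305 in cen4- at 180 min against 130, 104 and 139 in CEN4* at 0 min. DMC1, the meiotic strand exchange recombinase, also rose in both (0.42 and 0.47), at 106 ± 10.4 in cen4- and 92.2 ± 2.92 in CEN4 at 180 min (SD, n = 3). MER1, a splicing activator for meiotic introns, fell in both, to 110 ± 4.86 in cen4- at 180 min against 195 ± 11.8 in CEN4* at 0 min, and to 128 ± 11.8 in CEN4 at 180 min against 203 ± 8.20 at 0 min (SD, n = 3). REC102, a factor for meiotic breaks, rose in cen4- (0.43). SPO11, which makes the breaks, had an excision effect of -0.49 ± 0.22 SE and MND1 of -0.52 ± 0.28 SE, neither called (limma adjusted p = 0.0708 and 0.128). MEI4 (0.18), REC104 (0.43), MSH4 (-0.04), REC102 (0.41), REC114 (0.24), DMC1 (-0.05) and MER1 (-0.16) were not called for excision either.

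Genes of the chromosome axis and synapsis also gave 1 in each direction, among 7 (19.8% of all genes higher and 22.5% lower). ZIP1, the central element of the synaptonemal complex (YDR285W, chromosome IV, 1032436 to 1035063), was at 286, 304 and 315 in cen4- at 180 min and at 209, 241 and 194 in CEN4* at 0 min. CEN4 cells had 177, 212 and 180 at 180 min and 205, 193 and 175 at 0 min. All 3 cen4- libraries at 180 min lie above the other 9, and the excision effect was 0.51 ± 0.13 SE (limma adjusted p = 8.13e-04). SPO16 (YHR153C, chromosome VIII, 402086 to 402682) was at 56.1, 63.0 and 85.1 in cen4- at 180 min and at 69.9, 61.0 and 69.7 in CEN4* at 0 min. CEN4 cells had 105, 126 and 121 at 180 min and 70.9, 60.5 and 70.2 at 0 min. Here the CEN4 libraries at 180 min lie above the rest, and the excision effect was -0.79 ± 0.23 SE (limma adjusted p = 0.00444).

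HOP1, an axis protein, rose in both strains (0.84 in cen4- and 0.42 in CEN4), as did REC8 (0.97 and 0.47). RED1, the partner of Hop1, fell in both (-0.35 and -0.57), as did SPO22, another synapsis factor (-0.35 and -0.22). SPO13, which keeps sister centromeres together in the first division, fell in CEN4 (-0.32). The excision effects of HOP1 (0.42), REC8 (0.51), RED1 (0.22), SPO13 (0.03) and SPO22 (-0.13) did not pass at 180 min.

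Of the 8 genes of the prospore membrane and its signalling, 1 had a called excision effect at 180 min, a positive one. Among all genes 19.8% were higher and 22.5% lower. SPS1, a kinase needed for spore formation (YDR523C, chromosome IV, 1485566 to 1487038), was at 58.7, 53.3 and 50.7 in cen4- at 180 min and at 76.4, 49.3 and 46.9 in CEN4* at 0 min. In CEN4 cells it was at 23.9, 21.9 and 15 at 180 min and at 49.1, 70.7 and 60.4 at 0 min. SPS1 fell in CEN4 (-1.53), where the 180 min libraries lay below the other 9, and the excision effect was 1.48 ± 0.38 SE (limma adjusted p = 0.00117). In the cen4- strain the mean was 57.5, 35.4, 50, 36.6 and 54.3 at 0, 30, 60, 120 and 180 min, and in CEN4 it was 60.1, 25.8, 30.3, 23.0 and 20.3.

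SPO74 fell in CEN4 (-0.62 at 180 min), to 36.6 ± 4.79 against 57.1 ± 8.99 at 0 min (SD, n = 3). SMK1, the kinase of spore wall assembly, fell in both strains (-0.29 in cen4- and -0.35 in CEN4). SPO21, a spindle pole protein, SPO20, SPO77, which works with Sps1, SSP1, which coats the membrane edge, and SSP2, an activator of Smk1, were called in neither strain at 180 min, with excision effects of 0.19, 0.49, -0.14, -0.21 and 0.08. None of them was called.

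The spore wall genes had 3 higher and 1 lower excision effect among 9 at 180 min, beside 19.8% and 22.5% of all genes. They held both extremes of the list. SPS22 (YCL048W, chromosome III, 42165 to 43556) was at 45.8, 52.4 and 41.3 normalised counts in cen4- at 180 min and at 14, 10.7 and 3.80 in CEN4* at 0 min. CEN4 cells had 19.1, 12.9 and 14 at 180 min and 12, 9.13 and 6.53 at 0 min. All 3 cen4- libraries at 180 min stand above the other 9, and the excision effect was 1.63 ± 0.47 SE, 3.09-fold (limma adjusted p = 0.00368). The mean in the cen4- strain was 9.50, 18.2, 23.1, 29.6 and 46.5 at 0, 30, 60, 120 and 180 min, and in CEN4 it was 9.22, 15.7, 12.3, 14 and 15.3.

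DIT1 was at 217, 239 and 200 in cen4- at 180 min and at 96.8, 86.8 and 110 in CEN4* at 0 min, while CEN4 cells had 96.5, 119 and 76.9 at 180 min and 69.9, 53.6 and 75.1 at 0 min. It rose in both strains and by more in cen4- (excision effect 0.61 ± 0.20 SE, limma adjusted p = 0.0114, but 0.0747 without CEN4 t180 replicate 3). GSC2 rose too, to 3015, 3080 and 3097 in cen4- at 180 min against 1899, 1943 and 1838 in CEN4* at 0 min, and to 2527, 2583 and 2614 in CEN4 against 1974, 2090 and 2008. Its excision effect was 0.22 at 120 min (limma adjusted p = 0.00472) and 0.35 ± 0.06 SE at 180 min (limma adjusted p = 3.58e-06). GSC2 has a close paralog, FKS1, and how reads that fit both were counted is not given in the sources used here.

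SPS100 (YHR139C, chromosome VIII, 378219 to 379199) was at 988, 1131 and 1005 in cen4- at 180 min and at 194, 240 and 237 in CEN4* at 0 min. CEN4 cells had 1335, 1607 and 1363 at 180 min and 89.5, 137 and 114 at 0 min. SPS100 rose in both strains, by 4.65-fold in cen4- and 12.7-fold in CEN4. The mean was 224, 406, 537, 1007 and 1041 in the cen4- strain at 0, 30, 60, 120 and 180 min, and 114, 330, 675, 1612 and 1435 in CEN4. CEN4* cells were above CEN4 cells at 0 min, and cen4- cells below CEN4 cells at 120 and 180 min.

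The excision effect of SPS100 was -0.69, -1.32, -1.66 and -1.45 at 30, 60, 120 and 180 min, each ± 0.16 SE (limma adjusted p = 0.0287, 1.97e-05, 3.79e-08 and 1.72e-07). At 30 min it was not called without CEN4 t0 replicate 3 (limma adjusted p = 0.0503), CEN4 t30 replicate 1 or 2 (0.0755 and 0.0558), CEN4* t0 replicate 2 or 3 (0.0817 and 0.0816) or cen4- t30 replicate 1 or 3 (0.0797 and 0.0601), nor by edgeR on the recovered reads. Part of the effect is the 0.99 by which CEN4* lay above CEN4 at 0 min: the direct difference at 180 min was -0.46 (limma adjusted p = 0.00145). SPS100 overlaps SUT169, annotated on the opposite strand, and without a stated strand setting their reads cannot be told apart.

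SHC1 rose in both strains (2.13 in cen4- and 1.71 in CEN4), to 1185, 1199 and 1142 in cen4- at 180 min and 187, 209 and 134 in CEN4. Its excision effect was -0.66 at 120 min (limma adjusted p = 0.0101) and 0.42 at 180 min, the second not called (limma adjusted p = 0.0745). At 120 min SHC1 was still higher in cen4- than in CEN4 (direct difference 1.67, limma adjusted p = 1.57e-11), against 2.33 at 0 min. CDA1 (YLR307W, chromosome XII, 745620 to 746525) was at 63.9, 65.9 and 58.5 in cen4- at 180 min and at 43.0, 25.8 and 30.9 in CEN4, with an excision effect of -0.27 that was not called. CRR1 fell in both strains (-0.95 in cen4- and -0.66 in CEN4), to 209 ± 15.6 in cen4- and 184 ± 8.89 in CEN4 at 180 min (SD, n = 3). Its excision effect was -0.38 at 120 min (limma adjusted p = 0.0146, but 0.0628 without CEN4 t120 replicate 3) and -0.29 at 180 min, where it was not called. The direct difference of CRR1 at 120 min was 0.09 and not called (limma adjusted p = 0.42), against 0.47 at 0 min. DIT2, the second enzyme of dityrosine synthesis, stood at 47.0 ± 9.81 in cen4- and 22.0 ± 6.58 in CEN4 at 180 min (SD, n = 3), with an excision effect of 0.65 ± 0.37 SE (limma adjusted p = 0.151). SPS2, a relative of SPS22, fell in both strains (-0.36 and -0.55), with an excision effect of 0.19 that was not called.

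CDA2, which did not pass the limit on low values, was at 13.8, 10.7 and 18.9 in cen4- at 180 min and at 2.15, 0 and 1.27 in CEN4* at 0 min. CEN4 cells had 0.955, 2.58 and 0.998 at 180 min and 0, 0 and 1.63 at 0 min. Since 3 reads are worth 2.25 to 3.87 normalised counts, depending on the library, the CEN4* and CEN4 values just given are below 3 reads. With no limit on low values limma called its excision effect at 180 min (2.17 ± 0.71 SE, adjusted p = 0.0136), a value that depends on the pseudocount.

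SPS4 (YOR313C, chromosome XV, 901858 to 902874), of the last group of 2 genes, was at 69.9, 91.1 and 85.1 in cen4- at 180 min and at 141, 116 and 138 in CEN4* at 0 min. CEN4 cells had 193, 179 and 216 at 180 min and 180, 183 and 189 at 0 min. All 3 cen4- libraries at 180 min lie below the other 9, and the excision effect was -0.76 ± 0.16 SE (limma adjusted p = 7.66e-05). The other gene, SPS19, rose in both strains (0.77 and 0.83), with an excision effect of -0.06 that was not called.

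**Figure D4:**
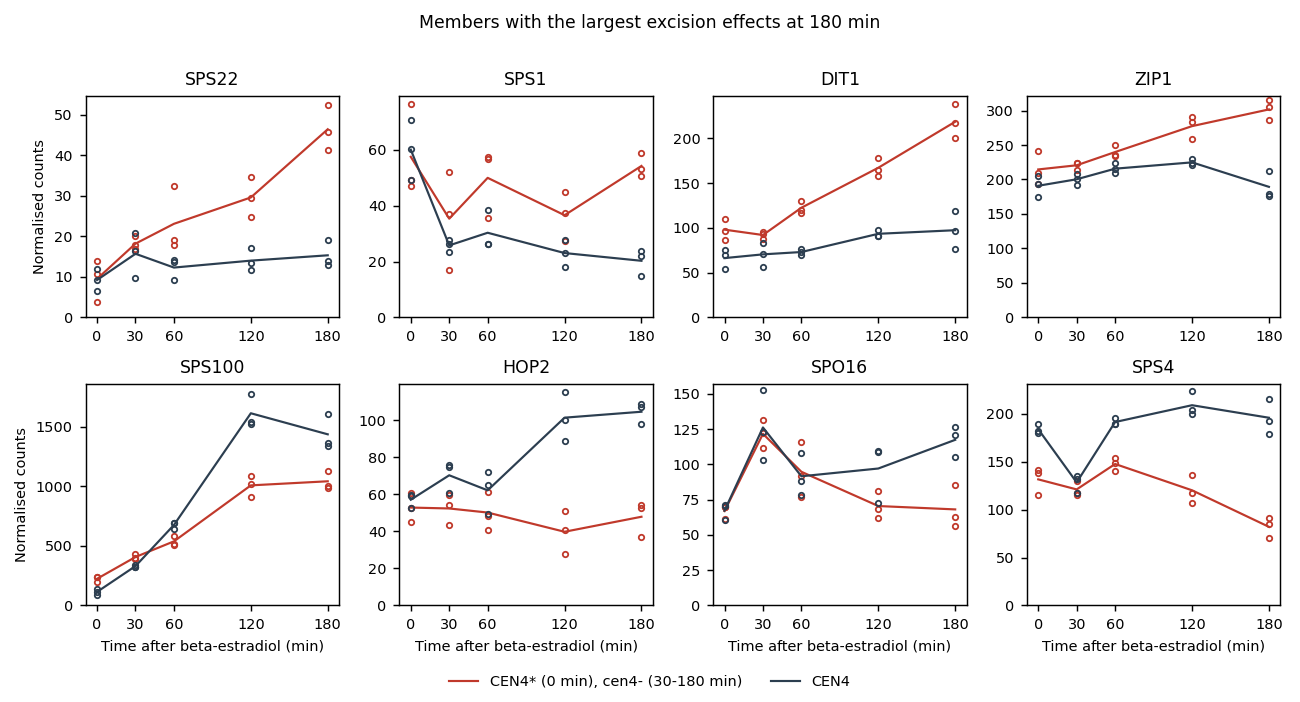
Normalised counts against time for the 4 largest positive (top row) and the 4 largest negative (bottom row) called excision effects at 180 min, with the 3 libraries of a group as circles and means as lines, red for CEN4* and cen4- and dark blue for CEN4. SPS22, DIT1 and ZIP1 climb in red and end at 46.5, 219 and 302, HOP2 and SPO16 end higher in dark blue at 105 and 117, and SPS100 crosses between 30 and 60 min.

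Of the 11 called genes, 3 sit beside a gene that was called in the same direction, where 19.8% of all genes were higher and 22.5% lower. The strand setting of the counting is not given in the sources used here. HOP2 faces AGA2 (YGL032C), the a-cell agglutinin subunit, with 168 bases between their 3′ ends, and AGA2 had 20.1 times its mean level. AGA2 was at 1022, 986 and 1043 in cen4- at 180 min and at 1145, 1213 and 1146 in CEN4* at 0 min. In CEN4 it was at 2383, 2311 and 2584 at 180 min and at 1382, 1467 and 1396 at 0 min, and its excision effect was -0.98 (limma adjusted p = 1.54e-19), close to that of HOP2. All 7 a-cell markers were called with a negative excision effect at 180 min (median -0.64), with summed levels of 22935 to 23483 in cen4- and 43845 to 45717 in CEN4 libraries. Their part in the result for HOP2 was not tested.

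SPS4 shares its upstream region with YOR314W, whose reading frame begins 168 bases away on the other strand and whose excision effect was -0.85 (limma adjusted p = 0.0104). The core printed above for SPS4 begins 190 bases before the start of SPS4, and so lies inside the annotated reading frame of YOR314W. MSH5 faces SAS10, with an excision effect of 0.37 (limma adjusted p = 7.52e-04). SPO16 faces SPO12, which was at 0.10 and not called. Over the 11 genes with a called excision effect, 6 had the same sign as their nearest neighbour, and in 3 of these (HOP2, SPS4 and MSH5) the neighbour was called too. Across the 41 genes, which are not independent replicates, Pearson's r between a gene and its nearest neighbour was 0.01 (0.17 over the 16 that face their neighbour at the 3′ end). CDA1 faces YLR307C-A, which was at 140.7, 134.8 and 149.6 in cen4- at 180 min and at 48.4, 35.3 and 41.8 in CEN4* at 0 min, and no higher than 9.03 in the 15 CEN4 libraries.

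**Figure D5:**
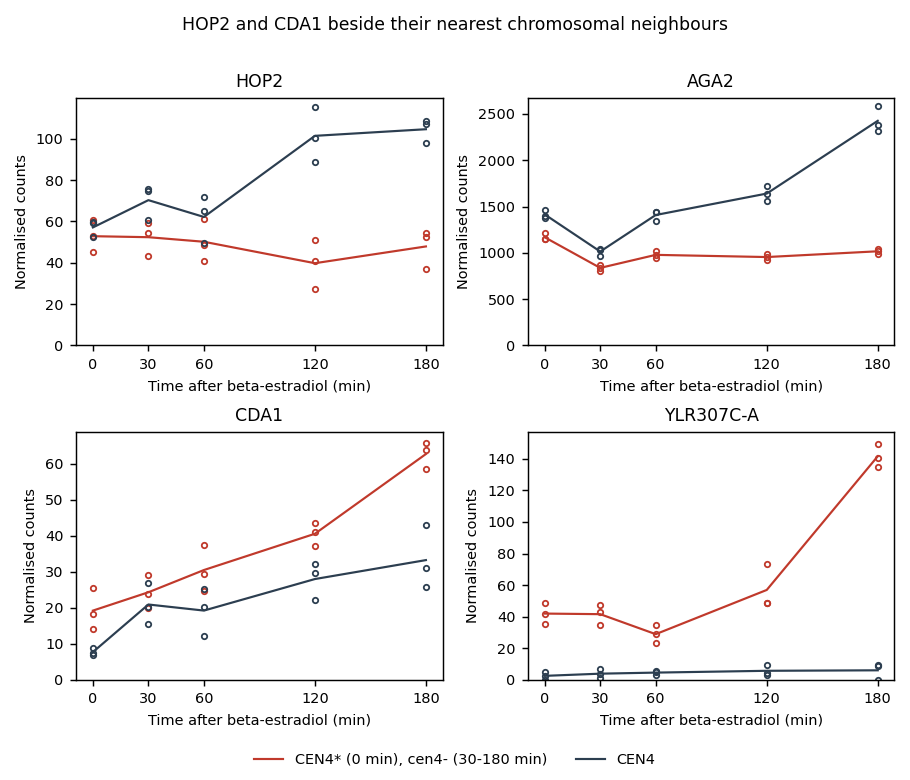
Normalised counts against time for HOP2 and CDA1 (left) and their nearest chromosomal neighbours AGA2 and YLR307C-A (right), with libraries as circles and group means as lines, red for CEN4* and cen4- and dark blue for CEN4. HOP2 and AGA2 both end higher in CEN4, at 105 and 2426, and YLR307C-A is near the bottom of its axis in CEN4 at all 5 times.

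The genes most like the extremes of the list were found by Pearson's r of log2 values over the 10 group means. For SPS22 they were UBC13, a ubiquitin-conjugating enzyme of DNA repair (0.977), KRE28, a kinetochore subunit (0.973), and IDP1, mitochondrial isocitrate dehydrogenase (0.973). For SPS100 they were GRE1 (0.989) and SIP18 (0.987), hydrophilins of desiccation, and YGR161W-C (0.981). These group means share the 2 time courses, so the values are descriptions. The excision effects at 180 min were -1.80 for GRE1, -1.61 for SIP18 and -0.25 for YGR161W-C, beside -1.45 for SPS100. They were 0.47 for UBC13, 0.33 for KRE28 and 0.54 for IDP1, beside 1.63 for SPS22. Since these genes were picked for their likeness over the same groups, their effects are no separate evidence.

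Further genes of the programme were called in both directions, and their counts at 180 min stand beside 19.8% of all genes higher and 22.5% lower. Of 20 further early meiosis genes 2 were called with a positive and 5 with a negative excision effect at 180 min (median -0.0017): ZIP2, a synapsis factor (-1.60), NDJ1, which binds telomeres in meiosis (0.53), and CSM1 and LRS4, the monopolin subunits (-0.51 and 0.46), were the largest. Of 29 further middle and late genes 9 were called as positive and 2 as negative (median 0.19), led by SGA1, the sporulation glucoamylase (0.84), LDS2 (0.70), AMA1, a meiotic activator of the anaphase-promoting complex (0.65), and MUM3 (0.64). Of 13 genes for repressors of the programme only RPD3 was called (-0.25). Of 17 genes for signalling to IME1, 7 were called as positive and 2 as negative (median 0.09), with the starvation kinase gene RIM15 at 0.68, RIM8 at 0.44 and RIM11 at 0.37.

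Of 25 general stress genes 13 were called as positive and 8 as negative at 180 min (median 0.26), where 19.8% of all genes were higher and 22.5% lower, and GRE1 (-1.80), SIP18 (-1.61), SOL4 (1.30) and ALD3 (-0.81) were the largest. Their summed level was 182883 to 189295 in cen4- and 96321 to 100792 in CEN4 libraries at 180 min. Of the a-cell markers MFA1 (-1.52), AGA2 (-0.98), BAR1 (-0.88) and ASG7 (-0.64) were the lowest, none of the 4 alpha-cell markers was called, and of 7 haploid markers STE5 was positive (0.26) and FUS3 (-0.54), GPA1 (-0.39) and STE4 (-0.25) negative.

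Set against the promoter strings, the 13 tested genes with a URS1 core had 1 positive and 2 negative called excision effects at 180 min (median 0.06), and the 28 without it 6 and 2 (median 0.14). These and the next counts stand beside 19.8% of all tested genes higher and 22.5% lower. Shares among all genes with each string were not computed. The 18 tested genes with the core of the middle sporulation element had 3 positive and 1 negative (median 0.07), and the 23 without it 4 and 3 (median 0.18). The 7 with the stress response element had 3 positive and 1 negative (median 0.49), and the 34 without it 4 and 3 (median 0.05). In SPS1 (1.48, called) and SPO77 (-0.14, not called) that match began 34 and 9 bases after the annotated start, so not upstream of the gene. HOP2 and ZIP1 thus carry the same core and had called excision effects of opposite sign, as did SPS4 and SPS22, whose sequences are printed above. Since 0 min HOP2 was called higher in CEN4 alone and ZIP1 higher in cen4- alone.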

How the data were processed

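RNA was sequenced from 30 libraries in 10 groups of 3. The authors deposited normalised read counts (signal, 1 value for each gene in each library). The submitters' processing notes name DESeq2, STAR 2.6.1 and the build R64 (sacCer3). The read counter, strand setting and annotation release are not given in the sources used here. Values were whole multiples of the value of 1 read in each library (100% within 1e-06 of a read), which gave 8218002 to 14956813 reads a library. A level is a deposited value, called normalised counts.

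The main tests were made with limma 3.58.1 (R 4.3.3; trend and robust) after log2(value + 1), fitting 10 group means (20 residual degrees of freedom), over 5948 genes with a mean of at least 10. Adding 1 makes the changes of weak genes look smaller. P-values were adjusted by Benjamini-Hochberg over all of these within a comparison, and a gene was called below 0.05. Changes are on the log2 scale. The method was tested on simulated data. The members, gene lists and motifs were chosen with earlier results of these data known, so counts over them are descriptions. Named genes were all called members of a comparison up to 12, otherwise the 6 largest in each direction, and up to 4 called genes of each other list, of which 1 is not reported here. Per-library values were given for the 4 largest called excision effects each way at 180 min, the 3 largest strain differences at 0 min and 4 regulators. They were also given for MSH5, GSC2, REC114 and CDA2 and for the neighbours AGA2 and YLR307C-A. IDs of 6047 genes matched R64.

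Alternatives were pseudocounts of 0.5 and 5, limits of 50 and none on the mean, scaling to the same total, array weights, edgeR 4.0.16 and DESeq2 1.42.0 on the recovered reads, the title number as a replicate block and leaving out each library.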

Additional observations from a re-analysis of the deposited data

Results flagged for a closer look

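In 18 results the change since 0 min differed between the cen4- and the CEN4 strain by limma's interaction test over 5948 genes (cen4- change minus CEN4 change, log2). The effects share the 0 min libraries.

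SPS100 differed at all 4 times, by -0.69 at 30 min (adjusted p = 0.0287), -1.32 at 60 min (adjusted p = 1.97e-05), -1.66 at 120 min (adjusted p = 3.79e-08) and -1.45 at 180 min (adjusted p = 1.72e-07). HOP2 differed by -1.25 at 120 min (adjusted p = 0.000243) and -1.01 at 180 min (adjusted p = 0.00159). GSC2 differed by 0.22 at 120 min (adjusted p = 0.00472) and 0.35 at 180 min (adjusted p = 3.58e-06). At 120 min CRR1 differed by -0.38 (adjusted p = 0.0146) and SHC1 by -0.66 (adjusted p = 0.0101). At 180 min SPS22 differed by 1.63 (adjusted p = 0.00368), SPS1 by 1.48 (adjusted p = 0.00117), DIT1 by 0.61 (adjusted p = 0.0114), ZIP1 by 0.51 (adjusted p = 0.000813), IME2 by 0.49 (adjusted p = 0.0186) and MSH5 by 0.47 (adjusted p = 0.00744). SPS4 differed by -0.76 (adjusted p = 7.66e-05) and SPO16 by -0.79 (adjusted p = 0.00444) at that time.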

How the results depend on the processing

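Leaving out each of the 30 libraries gave 7 to 8 members called at 0 min (8 with all libraries), 22 to 26 for the change at 180 min in cen4- (25), 21 to 26 in CEN4 (25), and 0 to 2, 1 to 2, 5 to 7 and 10 to 13 for the excision effect at 30, 60, 120 and 180 min (1, 1, 5 and 11). Array weights gave 2 members at 30 min and 2 at 60 min. Scaling to the same total gave 8 at 120 min, 5 higher and 3 lower, where 1381 of all 5948 genes were higher and 502 lower. It turned UME1 to 0.15 and SMK1 to 0.027 in the change at 180 min in cen4-, since it moves the median of all genes by 0.31 there. Of 76 single calls, edgeR lost 2, DESeq2 4, scaling to the same total 11 besides the 2 that turned, and no limit on low values 1, while neither pseudocount nor array weights lost any. With a mean of at least 50, 67 calls were tested and none was lost. The others were of genes below that limit, among them the excision effects of SPS22 and SPS1 at 180 min. The replicate block, the number in the titles that both strains share, gave 2 members at 30 min and lost none of the 26 calls it could test. Residuals of same-numbered libraries correlated between -0.10 and 0.12, so the numbers are not taken as pairs. Both of these concern the 2 strains at 1 time. Pairing of libraries across times within an experiment was neither checked nor modelled. All 11 excision calls at 180 min were also made by edgeR, DESeq2, array weights, the block and scaling to the same total. The cause of these shifts was not tested, other than the shift of the median. Depth limits the weakest members: SPS22 had as few as 3 reads in a library, and standard errors of excision effects had a median of 0.20 in the list, against 0.08 over all genes.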
